A study of Mus musculus with 34 samples.

Results

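The comparison described here is the end of exposure to the tobacco nitrosamine NNK against baseline in the airway epithelium of Gprc5a knockout mice. It uses 12 of the 34 samples of the series: the 6 knockout libraries taken before NNK (baseline) and the 6 taken directly after the last week of NNK (t0), chosen by the time point in the labels, with all genes of the deposited knockout table. All 12 mice were Gprc5a-/-, a strain without both copies of the gene for the retinoic acid induced receptor Gprc5a. Baseline mice had received no NNK, and t0 mice had received 50 mg/kg NNK by intraperitoneal injection 3 times a week for 8 weeks. The labels give an age of 6 to 8 weeks for the mice of both groups. RNA came from brushings of the trachea described as normal, 1 mouse per library, and was made into poly-A libraries for an Ion Proton sequencer. No mice of matched age without NNK were analysed here, so 8 weeks of age, the injections and NNK itself cannot be told apart. In these bulk samples, fewer cells of a type and less RNA per cell cannot be told apart either. The question put by the series is what the airway transcriptome looks like right after the carcinogen.

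The mouse trachea is lined by multiciliated cells, which beat mucus upward, by secretory club and goblet cells, which make the fluid, defence proteins and drug-metabolising enzymes of the airway, and by basal cells, the keratin-rich stem cells that rebuild the lining after injury. NNK is turned by cytochrome P450 enzymes into species that methylate and pyridyloxobutylate DNA, and by carbonyl reductases into the alcohol NNAL, which is cleared after glucuronidation. DNA damage of this kind stabilises p53, a transcription factor that switches on genes of cell cycle arrest, repair and apoptosis.

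The 12 libraries held 18.6 to 30.3 M estimated counts (M, 1000000 counts), and values below are counts per M (CPM) scaled by the trimmed mean of M values (TMM), a mean over the 6 libraries of a group unless a median with the lowest and highest library is given. Log2 changes are positive where t0 was higher and stand beside their standard error (SE). Gprc5a, the deleted gene, had 17 to 41 counts in each baseline library and 6 to 23 in each t0 library, so it was near the bottom of the scale in all 12. Of the 14847 genes tested, 6761 passed edgeR's quasi-likelihood test at an adjusted p under 0.05 (45.5%). Of these, 3457 were higher at t0 (23.3%) and 3304 were lower (22.3%), and the median log2 change of all tested genes was 0.02. Called changes of at least 2-fold were found for 3185 genes (21.5%), 1663 higher (11.2%) and 1522 lower (10.3%). Changes past 16-fold were higher for 152 genes and lower for 25. In 3828 genes (25.8%) the 6 libraries of each group did not overlap, all t0 libraries lying above all baseline libraries for 1942 (13.1%) and below them for 1886 (12.7%). Calls were made for 26.8% of the genes with a mean under 2 CPM and for 56.5% of those over 200 CPM. Scaling by library totals in place of TMM moved the median change to 0.19, and 69.4% of the calls were then higher, against 51.1% with TMM. Among the 6761 calls, 5333 remained whichever single library was left out.

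**Figure D1:**
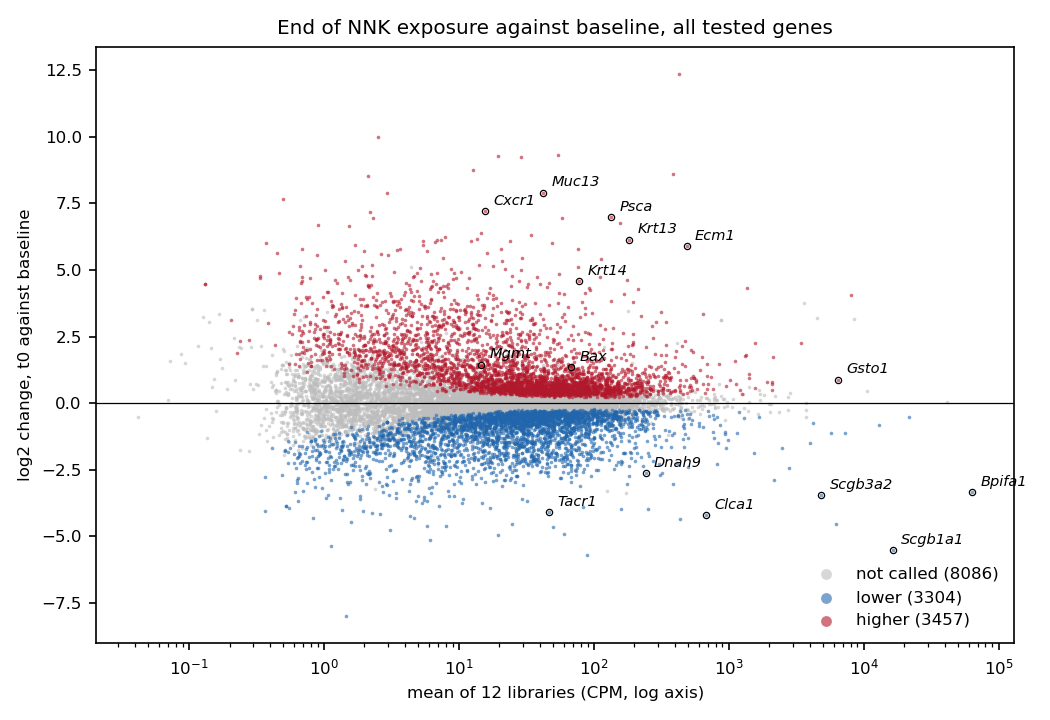
Each point is 1 of the 14847 tested genes, with the mean of the 12 libraries in CPM on a log axis and the log2 change at t0 against baseline (positive where t0 was higher). Called genes are coloured, 3457 above the zero line and 3304 below it, and labels mark genes described in the text.

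**Figure D2:**
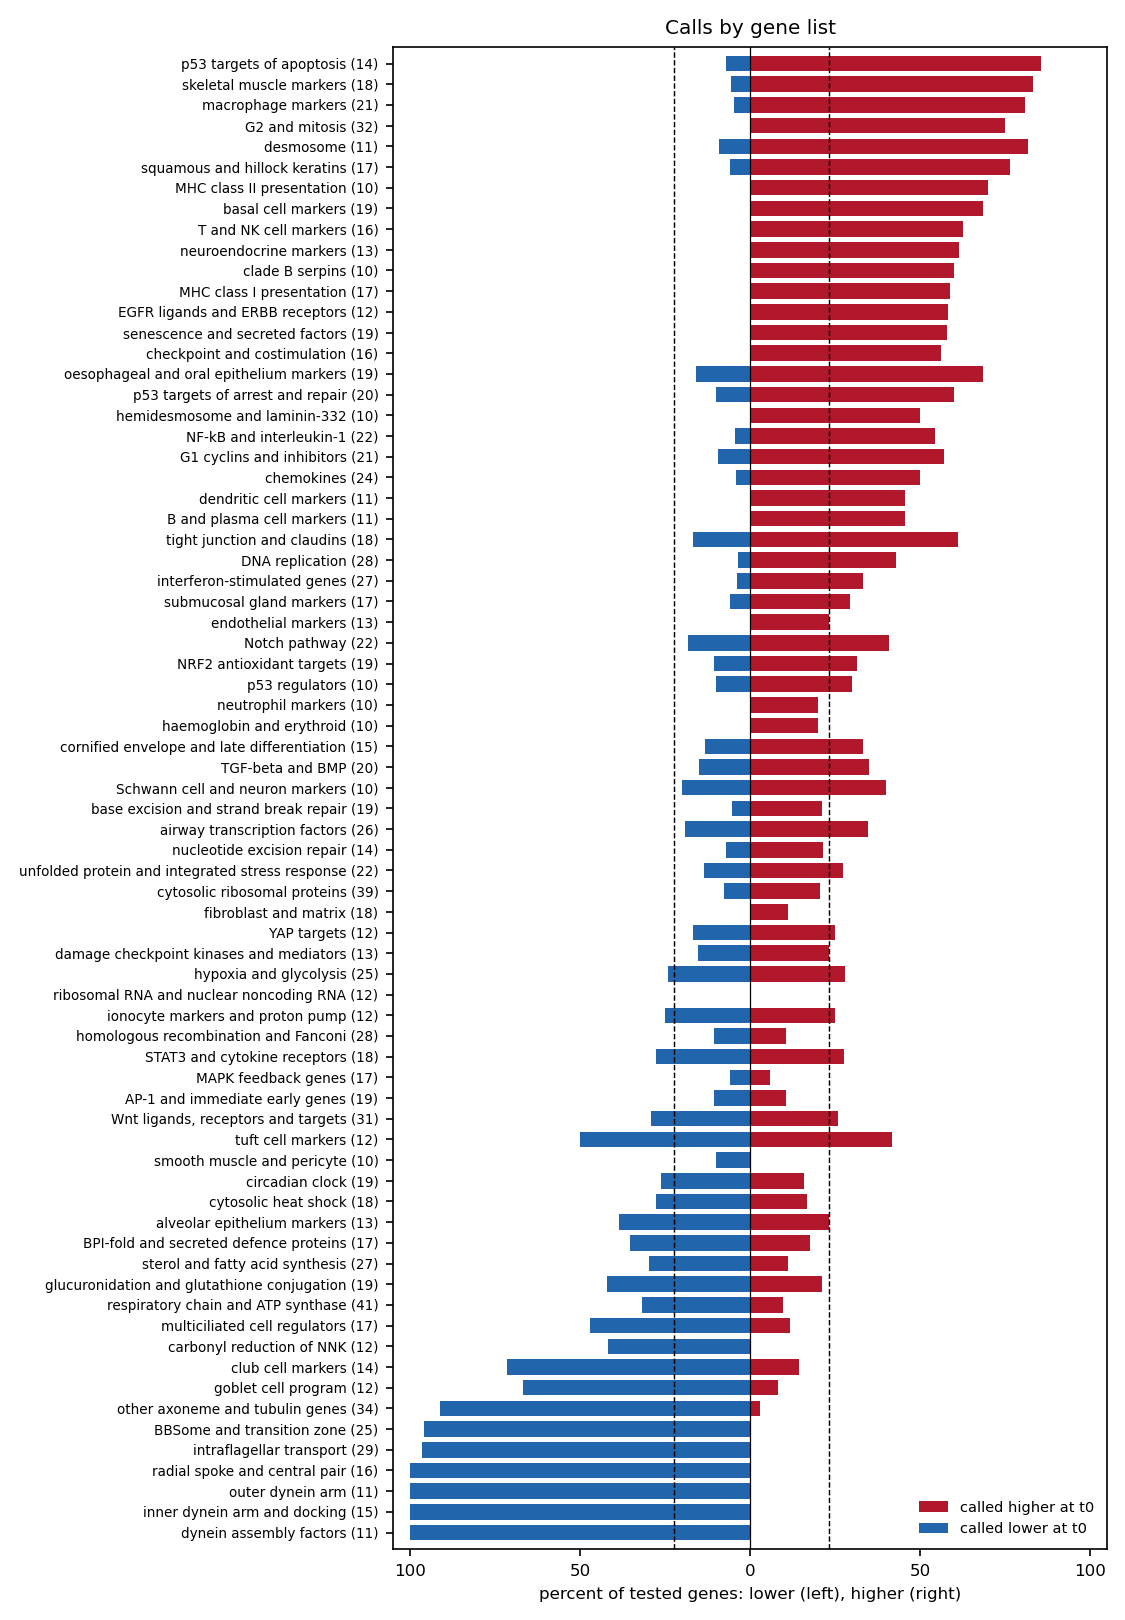
Percent of tested genes called higher (right, red) and lower (left, blue) at t0 in each of the 72 lists with at least 10 tested genes, ordered by the difference of both shares, with the number tested in brackets and dashed lines at the shares over all genes, 23.3% higher and 22.3% lower. The 7 ciliary lists reach furthest to the left, and the p53 apoptosis, skeletal muscle and macrophage lists stand at the top.

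The most abundant secretory transcripts of the airway fell to a small share of the library. Bpifa1, a surfactant-like antimicrobial protein, took 11.04% of all counts at baseline on average and 1.24% at t0. Scgb1a1, the secretoglobin that defines club cells, went from 3.06% to 0.0747%, Scgb3a1 from 1.15% to 0.0539% and Scgb3a2 from 0.844% to 0.0912%. The 10 most abundant genes of a library together took 24.4 to 29.3% of its counts at baseline and 12.4 to 15.9% at t0, apart from t0 357 with 30.0%, a library in which haemoglobin took 22.8% of the counts.

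Scgb3a2, a secretoglobin of airway secretory cells, had a median of 7604 CPM (6054 to 14949.6) at baseline and 817 CPM (271 to 1571) at t0. The highest t0 library lay below the lowest baseline library (log2 change -3.44 ± 0.35 (SE), edgeR adjusted p = 2.1e-08), a 10.9-fold fall. All 3 tested secretoglobins fell, and their summed level was 39698 to 71143 CPM at baseline and 786 to 3421 CPM at t0, ranges that lie far apart. In the wider club cell list 2 of 14 rose and 10 fell (median log2 change -1.26), beside 23.3% higher and 22.3% lower over all genes. Hp, the haemoglobin-binding protein haptoglobin, changed by -3.97 ± 0.36, and Cckar, the cholecystokinin receptor, by -5.68 ± 0.58, -6.77 without t0 359, with no overlap between the groups for either. The 2 members that rose were Krt15 (2.27 ± 0.32), a keratin that basal cells also make, and Gabrp (0.49 ± 0.15), a subunit of the GABA-A receptor. Cyp2f2, the P450 that marks club cells, stood apart from the secretoglobins, with 2.42% of counts at baseline and 1.88% at t0 (log2 change -0.53 ± 0.20, edgeR adjusted p = 0.036); without baseline 343, baseline 344, baseline 352, baseline 356, t0 359 or t0 375 the adjusted p was 0.052 to 0.0891.

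Goblet genes moved mostly down and mucins did not move as a block. In the goblet list 1 of 12 rose and 8 fell (median log2 change -0.82), beside 23.3% higher and 22.3% lower over all genes. Clca1, a secreted protein of mucous cells, had a median of 285 CPM (119 to 5938) at baseline and 77.1 CPM (30.1 to 92.6) at t0 (log2 change -4.20 ± 0.83 (SE), edgeR adjusted p = 0.00023, -2.38 without baseline 345). Its 2 groups did not overlap, and its level fell 18.3-fold. Gcnt3, which builds branched mucin glycans, was the 1 member that rose (3.67 ± 0.69, 5.02 without baseline 352). Among 7 tested mucins, Muc5b, the main gel-forming mucin of the healthy airway, fell (-1.68 ± 0.30), while 3 membrane-bound ones rose. Muc13, found on gut and injured epithelia, had a median of 0.176 CPM (0.0366 to 1.25) at baseline and 73.4 CPM (25.4 to 164) at t0 (log2 change 7.91 ± 0.73 (SE), edgeR adjusted p = 6.5e-09, 9.08 without baseline 345). Every t0 library lay above every baseline library, where the gene was barely detected. Muc4 changed by 1.09 ± 0.17 and Muc20 by 0.59 ± 0.20. Of 17 tested secreted defence proteins 3 rose and 6 fell. Bpifb1 (-2.87 ± 0.34), a relative of Bpifa1, and Pigr (-1.87 ± 0.18), which carries IgA across the epithelium, were lower, while Slpi (2.98 ± 0.66), an inhibitor of neutrophil elastase, and Bpifb9a (3.84 ± 1.35, 4.61 without baseline 352, 3.12 without t0 359, and without t0 359 the adjusted p was 0.0626) were higher. Lactoferrin, Ltf, an iron-binding defence protein, had 0.85% of counts at baseline and 1.28% at t0 and was not called (0.44 ± 0.24).

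Genes of the motile cilium fell almost as a whole. Across 7 lists that cover dynein arms, their assembly factors, radial spokes, other axonemal proteins, intraflagellar transport and the BBSome with the transition zone, 136 of 140 tested genes were lower and 1 was higher, with a median log2 change of -1.60, beside 22.3% lower and a median of 0.02 over all genes. In 108 of the 140 (beside 12.7% of all genes) every t0 library lay below every baseline library. The summed level of the 141 genes was 16290.5 to 19600.3 CPM at baseline and 4319 to 12267 CPM at t0, and the highest t0 value came from t0 359. The next t0 library had 5959 CPM, and 135 of the 140 tested genes had their highest t0 value in t0 359. Without t0 359, 138 were lower, none was higher, and the median log2 change was -2.01. With that library or without it, the direction was the same; what set t0 359 apart was not tested.

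**Figure D3:**
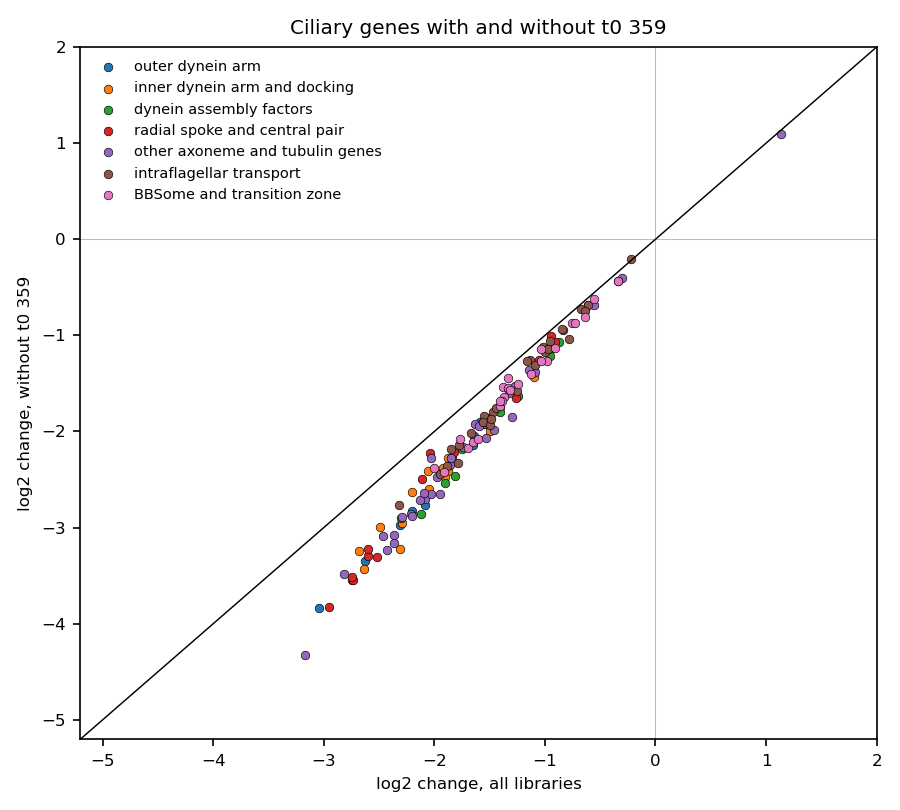
Each point is 1 of the 140 tested ciliary genes, with its log2 change from all libraries across and its log2 change without t0 359 up, coloured by list, and a line of equal values. Most points lie below the line: the median was -1.60 with t0 359 and -2.01 without it.

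Windows upstream of these genes were searched for the X-box, the sequence bound by the RFX factors that switch on ciliary genes. RefSeq windows of 250 bases before the start (GRCm38.p6) at the position of the gene in the deposited table were found for 117 of the 141 genes, 130 windows in all, and both strands were read. The letters GTTGCC, 1 arm of the X-box, which the other strand shows as GGCAAC, were in 37 of the 130 windows (28.5%), beside 10.4% of all 32841 windows, and the full X-box, which is this arm, 2 bases and the opposite arm GGNAAC, was in 3 (2.31%), beside 0.244% of all. A match describes the letters in the window and is not a measured binding site. The 3 full matches and 1 example with the arm alone are shown because they lie just upstream of the RefSeq starts of genes that fell, with the matched letters in capitals. The stretch of Tekt1 lies inside the longer span that the deposited table gives for that gene, and the 3 others lie outside theirs. These genes were chosen for their windows after their values were seen.
Bbs7: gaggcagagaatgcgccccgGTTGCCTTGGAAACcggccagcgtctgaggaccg
Ttc26: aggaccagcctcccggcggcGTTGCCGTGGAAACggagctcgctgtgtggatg
Mks1: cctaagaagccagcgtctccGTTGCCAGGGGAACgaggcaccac
Tekt1: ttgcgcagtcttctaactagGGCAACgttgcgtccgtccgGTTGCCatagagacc

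Of the genes with these windows, Bbs7, a BBSome subunit (GRCm38, chromosome 3, 36573143 to 36613389), changed by -1.91 ± 0.27, Ttc26, an intraflagellar transport protein, by -1.50 ± 0.23, and Mks1, a transition zone protein, by -0.64 ± 0.20. Tekt1 (chromosome 11, 72344717 to 72362442), a tektin that runs inside the doublet microtubules, changed by -1.85 ± 0.27. All 4 were called lower.

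The motor proteins of the axoneme fell without exception among those tested. All 11 outer dynein arm genes were lower (median -1.91), and for all 11 the groups did not overlap. Dnah9, an outer arm heavy chain, had a median of 423 CPM (356 to 476) at baseline and 41.7 CPM (33.2 to 199.7) at t0. The highest t0 value was that of t0 359, and the log2 change was -2.63 ± 0.32 with all libraries and -3.35 without it. Dnal1, a light chain, changed by -1.59 ± 0.20. All 15 inner arm and docking genes fell as well (median -2.05), among them Dnah6 (-2.63 ± 0.35, -3.43 without t0 359). Dnah7a and Dnah7b are near-identical, so their split counts are uncertain. All 11 dynein assembly factors, which build the arms in the cytoplasm, were lower by a smaller median (-1.51). Spag17, a large central pair protein, had a median of 79.4 CPM (57.4 to 90.9) at baseline and 8.87 CPM (6.29 to 34.9) at t0, again with no overlap, and changed by -2.60 ± 0.31 (-3.23 without t0 359). All 16 radial spoke and central pair genes fell (median -2.10), including the spoke head gene Rsph1 (-2.04 ± 0.32) and Dnajb13 (-2.12 ± 0.26). Sntn, a protein of the ciliary tip, changed by -2.82 ± 0.35, -3.48 without t0 359, and Ak7, an axonemal adenylate kinase, by -2.46 ± 0.31, -3.09 without t0 359. The 1 ciliary gene that rose was the tubulin Tubb4a (1.13 ± 0.43, edgeR adjusted p = 0.032), and without baseline 343, baseline 344, baseline 345, baseline 352, t0 357, t0 359, t0 374 or t0 375 the adjusted p was 0.0502 to 0.0845.

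Transport and gate proteins of the cilium, which primary cilia also use, fell by less. In intraflagellar transport 28 of 29 genes were lower (median -1.25), and in the BBSome and transition zone 24 of 25 (median -1.33). Dync2h1, the motor of return transport, had a median of 114 CPM (96.7 to 134) at baseline and 17.1 CPM (14.6 to 51.9) at t0 (log2 change -2.32 ± 0.24 (SE), edgeR adjusted p = 2.0e-08), and no t0 library reached the lowest baseline library. Kif3b, a subunit of the outward kinesin motor, changed by -0.84 ± 0.11, and the BBSome subunits Bbs2 and Bbs9 by -1.38 ± 0.14 and -1.33 ± 0.15. Ift20, which also works at the Golgi, was not called (-0.22 ± 0.18).

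The regulators of multiciliated cells were less uniform than the axoneme. Of 17 tested, 8 fell and 2 rose (median -0.47), beside 22.3% lower and 23.3% higher over all genes. Rfx3, an X-box binding factor, changed by -1.99 ± 0.24, E2f5 by -1.37 ± 0.19 and Trp73, a p53 relative needed for multiciliated cells, by -1.41 ± 0.20. Foxj1, the master factor of motile cilia, had a median of 673 CPM (609 to 961) at baseline and 256 CPM (152 to 595) at t0 (log2 change -1.33 ± 0.26, edgeR adjusted p = 0.00013). Its groups did not overlap. Mcidas, which starts the program, rose by 0.90 ± 0.27, as did E2f4 (0.67 ± 0.14), its cell cycle partner. Gmnc, the earliest regulator, was not called (-0.88 ± 0.40).

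Basal cell genes and the junctions of stratified epithelium rose. In the basal list 13 of 19 rose and 0 fell (median log2 change 0.94), beside 23.3% higher over all genes, and in 10 every t0 library lay above every baseline library, beside 13.1%. The summed level was 2271 to 4026 CPM at baseline and 6646 to 11442 CPM at t0. The lowest t0 library lay above the highest baseline library. Krt14, a basal keratin, had a median of 3.92 CPM (3.31 to 18.9) at baseline and 159.7 CPM (65.9 to 201) at t0 (log2 change 4.57 ± 0.50 (SE), edgeR adjusted p = 8.5e-08, 5.28 without baseline 352). Krt5, its pairing partner, changed by 2.01 ± 0.28, and Trp63, the transcription factor that maintains basal cells, by 0.28 ± 0.19 (not called, adjusted p = 0.23). In the desmosome list, the spot welds between cells, 9 of 11 rose and 1 fell (median log2 change 1.46). Pkp1, a plakophilin of stratified epithelia, had a median of 15.7 CPM (10.4 to 23.2) at baseline and 127 CPM (91.1 to 151) at t0 (log2 change 2.91 ± 0.29 (SE), edgeR adjusted p = 2.1e-08), with no overlap. Evpl (3.05 ± 0.24), which ties desmosomes to the cornified envelope, and the cadherin Dsg3 (4.90 ± 0.58) rose with it. Pkp2 (-0.55 ± 0.16), the plakophilin of simple epithelia and heart, was the 1 that fell. In hemidesmosomes and laminin-332, which anchor basal cells, 5 of 10 rose and 0 fell (median log2 change 0.67), with Itgb4 at 1.13 ± 0.17 and Lamb3 at 1.17 ± 0.25.

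Tight junction genes, which seal the layer, split by member. In this list 11 of 18 rose and 3 fell (median log2 change 0.42), beside 23.3% higher and 22.3% lower over all genes. Cldn4 had a median of 109.6 CPM (85.1 to 217) at baseline and 491 CPM (331 to 859) at t0 (log2 change 2.19 ± 0.28 (SE), edgeR adjusted p = 7.9e-07). Its groups did not overlap. Cldn23 (2.20 ± 0.23) and the scaffold Tjp3 (0.73 ± 0.13) rose as well, while Cldn10 (-3.06 ± 0.44) and Cldn8 (-0.80 ± 0.16) fell.

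Keratins and other genes of squamous and hillock epithelium, which is stratified, were among the largest rises. In this list 13 of 17 rose and 1 fell (median log2 change 1.58), beside 23.3% higher and 22.3% lower over all genes. The summed level was 4053 to 6122 CPM at baseline and 8982 to 18506 CPM at t0, highest in t0 367. Krt13, the hillock keratin (GRCm38, chromosome 11, 100117596 to 100121495), had a median of 1.62 CPM (1.198 to 22.6) at baseline and 301 CPM (103 to 636) at t0 (log2 change 6.14 ± 0.89 (SE), edgeR adjusted p = 5.8e-06, 7.69 without baseline 352), a 70.6-fold rise. Every t0 library lay above every baseline library. Its partner Krt4 rose from 0.012% to 0.276% of counts on average. Ecm1, a matrix protein of stratifying skin, had a median of 13.7 CPM (9.99 to 31.6) at baseline and 996 CPM (403 to 1393) at t0 (log2 change 5.91 ± 0.50 (SE), edgeR adjusted p = 1.4e-09), and Anxa1, a calcium-dependent membrane binder, changed by 1.58 ± 0.20. Krt18, a keratin of simple epithelium, fell (-0.62 ± 0.25), but without baseline 343, baseline 344, baseline 345, baseline 355, baseline 356, t0 332, t0 357, t0 359, t0 374 or t0 375 the adjusted p was 0.0518 to 0.106.

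Transcripts that mark oesophageal and oral epithelium, tissues next to the trachea, moved with the squamous keratins. Of 19 tested 13 rose and 3 fell (median 2.63), beside 23.3% higher and 22.3% lower over all genes. The summed level was 2119.8 to 3995 CPM at baseline and 2755 to 6951 CPM at t0. Members that this list shares with the squamous or cornified envelope lists include Krt4, Krt13, Nccrp1, Cnfn and Tgm3. How far other tissue in the brushing took part in the rise was not tested. Ly6g6c, a surface protein of squamous epithelium, changed by 5.12 ± 0.44 and Nccrp1 by 9.24 ± 0.96, 9.93 without baseline 355. Psca, a surface antigen of stratified epithelia and bladder, had a median of 0.544 CPM (0.0727 to 9.88) at baseline and 212 CPM (60.5 to 539) at t0 (log2 change 6.99 ± 1.14 (SE), edgeR adjusted p = 2.6e-05, 9.14 without baseline 345), with no overlap. Members that fell were BC048546 (-2.28 ± 0.39), Lypd2 (-1.50 ± 0.29) and Rptn (-1.73 ± 0.60). Genes of the cornified envelope were mixed: 5 of 15 tested rose, 2 fell, and 13 others in the table were too low to test, among them Ivl and Lor. Tgm5, a transglutaminase, changed by 5.80 ± 0.77 and Cnfn, cornifelin, by 8.76 ± 1.35, 12.36 without baseline 352. Of 10 clade B serpins, intracellular protease inhibitors, 6 rose, among them Serpinb5 (2.37 ± 0.26) and Serpinb10 (4.33 ± 0.35).

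**Figure D4:**
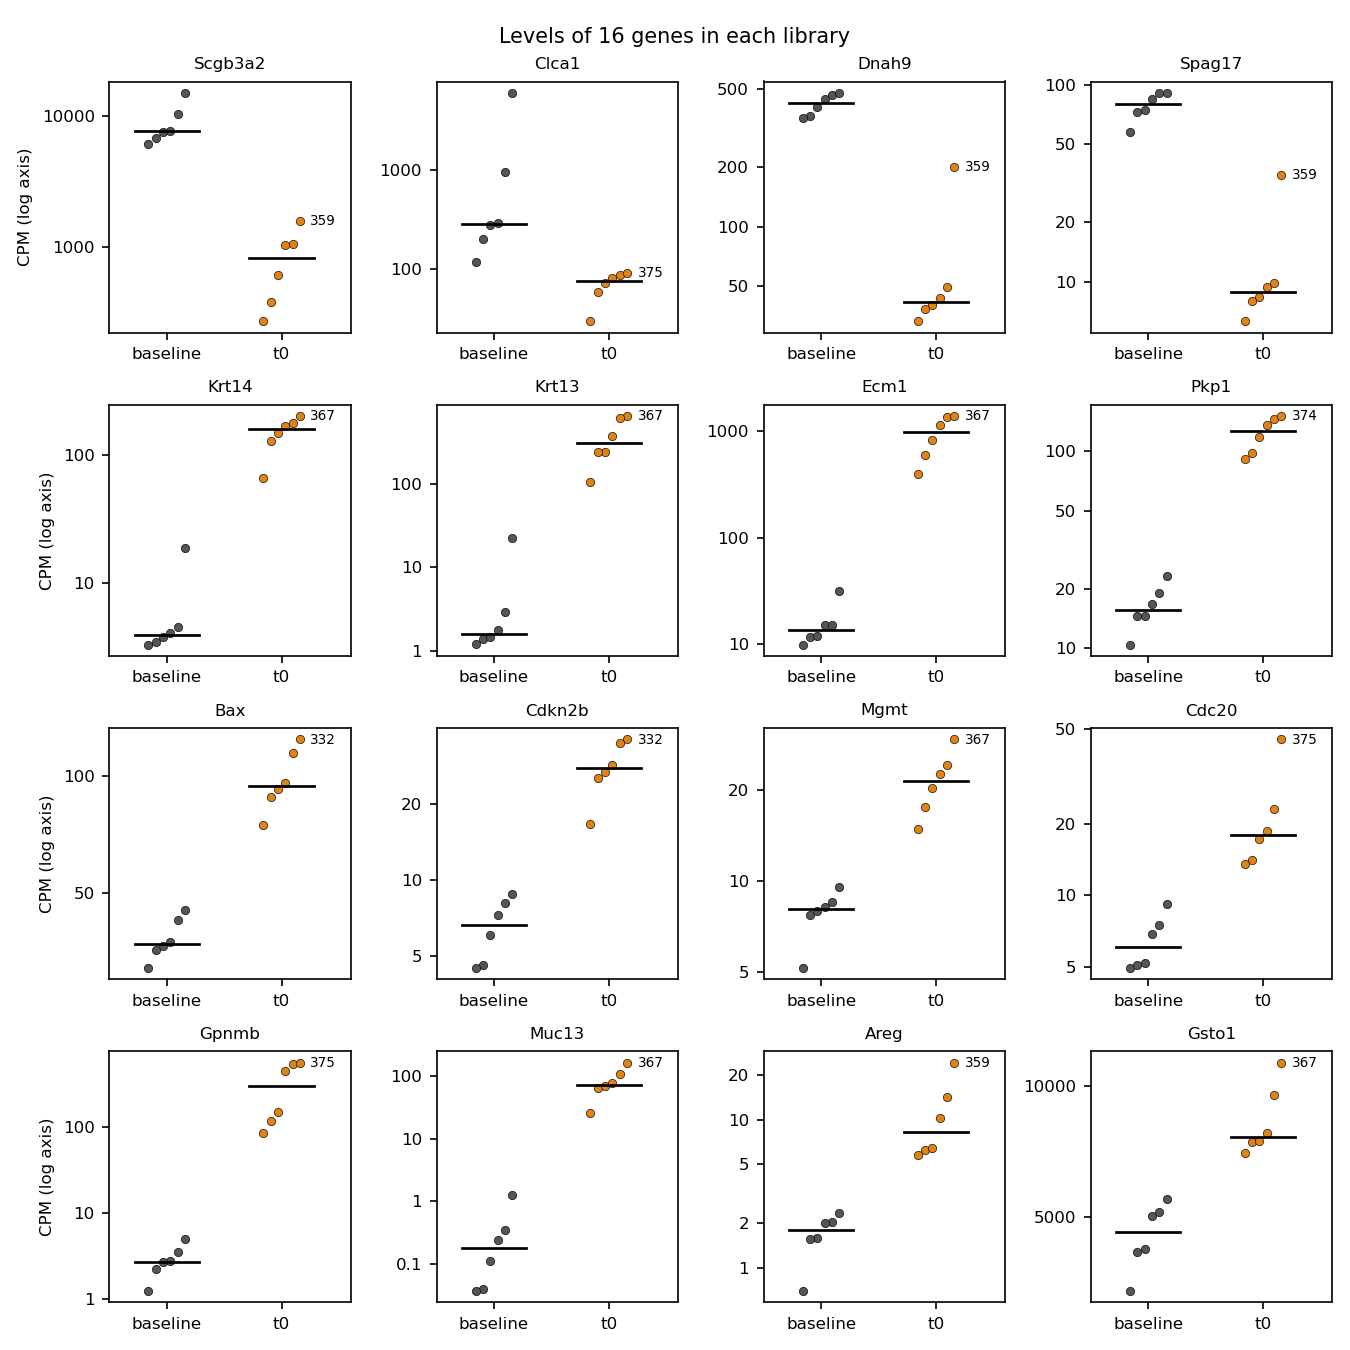
CPM of 16 genes in each of the 12 libraries on log axes, baseline on the left and t0 on the right of each panel, with a bar at the group median and the animal number beside the highest t0 library. In the top row, Scgb3a2, Clca1, Dnah9 and Spag17 fell; in the other rows the t0 medians lie above those of baseline, as for Krt14 and Krt13, for which 1 baseline library lies far above the other 5.

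**Figure D5:**
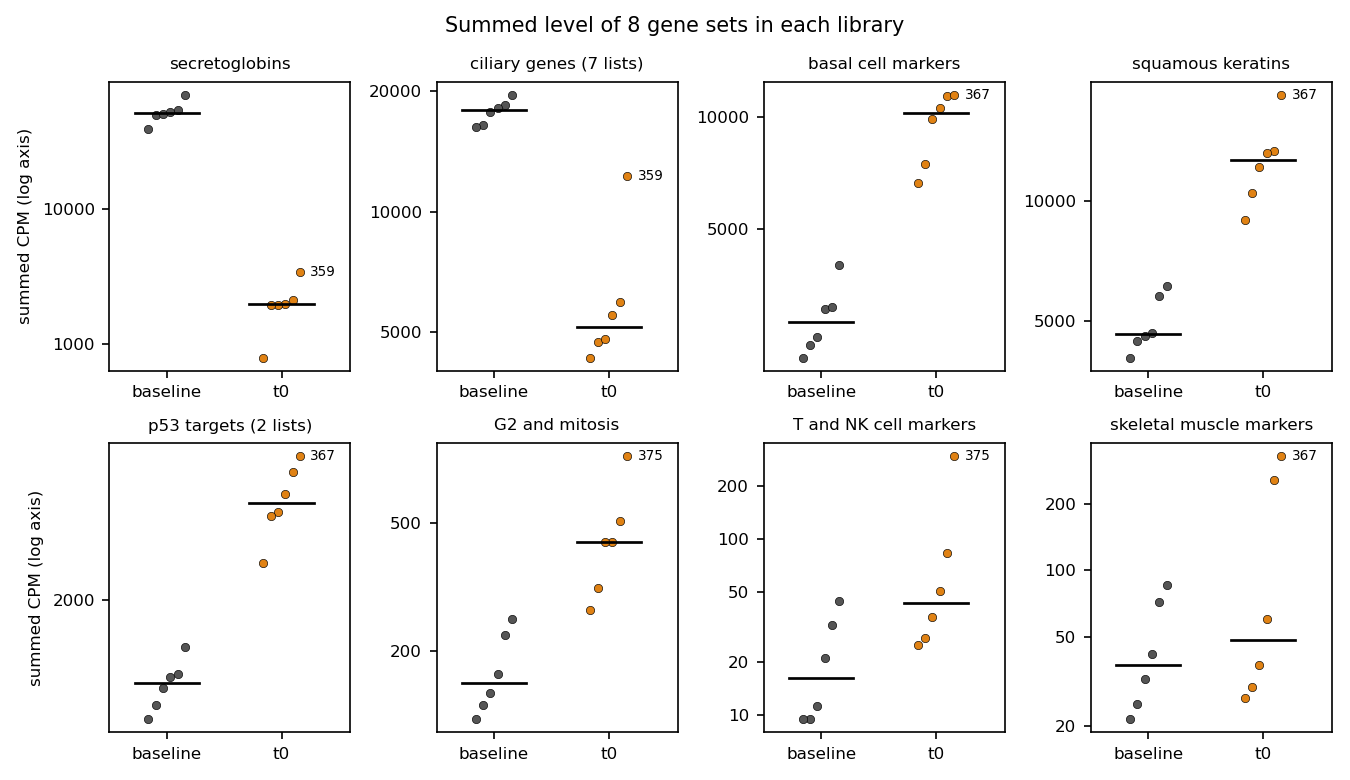
Summed CPM of the genes of 8 sets in each library on log axes, 6 baseline libraries on the left and 6 t0 libraries on the right of each panel, with a bar at the group median and the animal number beside the highest t0 library. Secretoglobins and ciliary genes sit lower at t0 and basal and squamous genes higher, and t0 359 stands above the other t0 libraries for ciliary genes.

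Targets of p53 rose in both arms of the pathway. Of 20 arrest and repair targets 12 rose and 2 fell (median 0.87), and of 14 apoptosis targets 12 rose and 1 fell (median 1.05). Over all genes 23.3% were higher and 22.3% lower. The summed level of the 33 targets was 1287 to 1684 CPM at baseline and 2295 to 3408 CPM at t0, ranges that did not meet. Bax, which opens the mitochondrial membrane, had a median of 37.0 CPM (32.1 to 45.3) at baseline and 94.2 CPM (74.7 to 124) at t0 (log2 change 1.36 ± 0.24 (SE), edgeR adjusted p = 3.7e-05). Pmaip1, the BH3-only protein Noxa, changed by 3.75 ± 0.45 and Bcl2l11, its relative Bim, by 1.14 ± 0.20. Bbc3, the BH3-only protein Puma, rose (0.97 ± 0.27). Among arrest genes Cdkn1a, the kinase inhibitor p21, changed by 2.88 ± 0.24 and Phlda3, an inhibitor of AKT, by 1.93 ± 0.19, while Gadd45a and Btg2 were not called (0.48 ± 0.28 and -0.37 ± 0.35). The targets that fell were Rrm2b (-0.65 ± 0.16), Polk (-0.62 ± 0.18) and Fas (-1.08 ± 0.27). Trp53 itself had a median of 28.8 CPM (23.9 to 34.7) at baseline and 71.0 CPM (50.4 to 94.9) at t0 (log2 change 1.32 ± 0.21 (SE), edgeR adjusted p = 8.8e-06). Its phosphatase Ppm1d (0.44 ± 0.16, and without baseline 344, t0 332 or t0 367 the adjusted p was 0.0501 to 0.0743) and Cdkn2a (3.53 ± 0.58) rose too, and Mdm2 was not called (-0.11 ± 0.15). Cdkn2a, whose products include an inhibitor of Mdm2, was near the bottom of the scale. It ran from 0 to 0.291 CPM at baseline and from 0.745 to 2.89 CPM at t0. Counts per gene do not tell its products apart.

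Genes of the senescence and secreted factor list were called higher or not called. Of 19 tested 11 rose and 0 fell (median 1.86), beside 23.3% higher and 22.3% lower over all genes, while Il6 and Ccl2 were too low to test. Cdkn2b, the kinase inhibitor p15, had a median of 6.67 CPM (4.51 to 8.83) at baseline and 27.7 CPM (16.7 to 36.1) at t0 (log2 change 2.095 ± 0.24 (SE), edgeR adjusted p = 1.2e-07), with no overlap between groups. Igfbp3, a secreted growth factor binder, changed by 1.90 ± 0.25. Lmnb1, a nuclear lamin, ran from 14.5 to 32.3 CPM at baseline and from 29.4 to 49.9 CPM at t0. Glb1, a lysosomal galactosidase, ran from 37.3 to 52.0 CPM at baseline and from 35.9 to 58.1 CPM at t0. The counts do not take into account which direction senescence would give each member.

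DNA repair lists held fewer calls than the 45.5% over all genes, apart from the translesion polymerases (1 of 8 rose and 3 fell). In base excision repair 4 of 19 rose and 1 fell, in mismatch repair 1 of 8 rose and 2 fell, or 1 without any 1 of 5 libraries, in nucleotide excision repair 3 of 14 rose and 1 fell, and in homologous recombination with the Fanconi genes 3 of 28 rose and 3 fell. Mgmt, which removes the methyl group that NNK leaves on guanine (GRCm38, chromosome 7, 136894611 to 137128188), had a median of 8.10 CPM (5.17 to 9.56) at baseline and 21.4 CPM (14.9 to 29.3) at t0 (log2 change 1.45 ± 0.21 (SE), edgeR adjusted p = 3.3e-06). All 6 t0 libraries exceeded all 6 baseline libraries, and Mgmt was the 1 member of the direct reversal list that was called. Fen1 (1.08 ± 0.22), a flap nuclease, and Xrcc1 (0.41 ± 0.12), a strand break scaffold, were higher, and Ogg1 (-0.74 ± 0.17), the glycosylase of oxidised guanine, was lower. In end joining no gene rose and 3 of 9 fell, with Trp53bp1 at -0.58 ± 0.10 and Xrcc5 at -0.63 ± 0.18. H2afx, the histone marked at breaks, rose (1.21 ± 0.17), and the kinase Atr fell (-0.84 ± 0.16).

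Mitotic genes rose beside the arrest genes. Of 32 genes of G2 and mitosis 24 rose and none fell (median 1.43), beside 23.3% higher and 22.3% lower over all genes. Their summed level was 123 to 251 CPM at baseline and 268 to 802 CPM at t0. The highest value was that of t0 375, in which 31 of the 32 genes had their highest t0 level, and 504 CPM was the next. Without t0 375, 16 rose, none fell and the median was 1.16. The groups did not overlap for Cdc20, the activator of the anaphase complex, with a median of 6.05 CPM (4.97 to 9.22) at baseline and 18.0 CPM (13.5 to 45.1) at t0 (log2 change 1.76 ± 0.30 (SE), edgeR adjusted p = 2.8e-05, and 1.42 without t0 375). Foxm1, the factor that drives these genes, changed by 1.41 ± 0.22 and Kif23, a kinesin of the midbody, by 1.65 ± 0.29. In DNA replication 12 of 28 rose and 1 fell, among them the licensing factor Cdt1 (1.85 ± 0.37) and the clamp Pcna (0.75 ± 0.16), while Gmnn (-1.11 ± 0.24), the inhibitor of Cdt1, fell. Of 21 cyclins and inhibitors of G1 12 rose and 2 fell; Ccnd2 rose (1.16 ± 0.17), and Cdkn1c (-1.53 ± 0.24) and Rbl2 (-0.49 ± 0.15), both brakes on division, fell.

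Promoters of mitotic genes are known for CCAAT boxes beside a cell cycle homology region, CHR. In RefSeq windows of 250 bases before the start, found for 26 of the 32 genes (27 windows), CCAAT, which the other strand shows as ATTGG, was in 21 (77.8%), beside 33.9% of all windows, and the CHR letters TTTGAA, or their reverse complement TTCAAA, in 9 (33.3%), beside 15.99%. The motifs do not overlap each other. The windows of 3 genes that rose and hold both are shown, with the matched letters in capitals; the stretch of Prc1 reaches into the span that the deposited table gives for the gene, and Mki67 and Prc1 were chosen for their windows after their values were seen.
Cdc20: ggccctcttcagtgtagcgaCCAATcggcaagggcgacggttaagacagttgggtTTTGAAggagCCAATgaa
Mki67: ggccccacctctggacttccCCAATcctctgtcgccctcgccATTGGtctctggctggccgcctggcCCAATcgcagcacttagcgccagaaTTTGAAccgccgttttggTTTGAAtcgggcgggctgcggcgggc
Prc1: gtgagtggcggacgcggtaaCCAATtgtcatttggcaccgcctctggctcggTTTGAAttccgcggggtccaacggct

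Mki67, the proliferation antigen Ki-67, changed by 1.66 ± 0.38 and Prc1, which bundles the midzone microtubules, by 1.01 ± 0.32; for Prc1, without t0 375 the adjusted p was 0.0565.

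More of the genes for enzymes that activate or clear NNK were called lower than higher, beside 23.3% higher and 22.3% lower over all genes. Of 9 tested P450 genes of NNK activation 6 fell and 1 rose (median -0.69). The groups overlapped for Cyp2a5, the P450 best known for NNK in the mouse, with a median of 7881 CPM (5164 to 10899) at baseline and 3267 CPM (2245 to 6355) at t0 (log2 change -1.12 ± 0.23 (SE), edgeR adjusted p = 0.00022); it is close in sequence to Cyp2a4. Cyp4b1 (-1.67 ± 0.18) and Cyp2s1 (-1.36 ± 0.23) fell, and Cyp3a13 rose (0.86 ± 0.28). Of 12 carbonyl reductases 5 fell and none rose. Cbr2, an abundant lung carbonyl reductase, went from 1.57% to 1.01% of counts (log2 change -0.81 ± 0.21, edgeR adjusted p = 0.0022). Akr1c14 changed by -2.25 ± 0.33 and Akr1c12 by -1.47 ± 0.27. Among 19 conjugating enzymes 4 rose and 8 fell. The groups did not overlap for Gsto1, a glutathione transferase of the omega class, with a median of 4622 CPM (3377 to 5495) at baseline and 7626 CPM (7012 to 11317) at t0 (log2 change 0.88 ± 0.16 (SE), edgeR adjusted p = 6.4e-05). It took 0.433% of counts at baseline and 0.901% at t0. Gsta3 (-1.14 ± 0.19) and Mgst2 (-1.38 ± 0.25) fell. Targets of NRF2, the antioxidant factor, split: 6 of 19 rose and 2 fell, with the ferritin chain Fth1 (0.80 ± 0.15) higher and Gclm (-0.35 ± 0.13, and without baseline 344, baseline 352, baseline 356, t0 332, t0 357, t0 367 or t0 375 the adjusted p was 0.0517 to 0.0872), a subunit of glutathione synthesis, lower. Of the classical members, the quinone reductase Nqo1 rose (1.10 ± 0.28) and the haem oxygenase Hmox1 was not called (0.66 ± 0.44).

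Macrophage transcripts rose strongly one by one. Of 21 markers 17 rose and 1 fell (median 3.05), beside 23.3% higher and 22.3% lower over all genes. In 12 the groups did not overlap, beside 25.8% of all genes. Gpnmb, a glycoprotein of lipid-laden macrophages, had a median of 2.72 CPM (1.24 to 5.05) at baseline and 295 CPM (84.6 to 554) at t0 (log2 change 6.75 ± 0.79 (SE), edgeR adjusted p = 3.1e-07), and every t0 library was above every baseline library. Ctss, the lysosomal protease cathepsin S, changed by 4.10 ± 0.46 and Cd68, a lysosomal membrane protein, by 4.14 ± 0.39. The summed level of the list did not follow, at 3252 to 8109 CPM at baseline and 2326 to 7572 CPM at t0. Lyz2, lysozyme, made up most of that sum and fell, with a median of 4886 CPM (3066 to 7974) at baseline and 2504 CPM (1595 to 5410.2) at t0 (log2 change -0.76 ± 0.28 (SE), edgeR adjusted p = 0.03), and without baseline 343, baseline 352, t0 332, t0 359, t0 367 or t0 374 the adjusted p was 0.0562 to 0.0925.

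The rise of T cell markers rested largely on 1 library. Of 16 tested T and NK cell genes 10 rose, and the summed level was 9.51 to 44.3 CPM at baseline and 24.98 to 295 CPM at t0; t0 375 gave the highest value and the highest level of 14 genes of the list. Without t0 375, 2 rose and 1 fell. The counts here stand beside 23.3% higher and 22.3% lower over all genes. Among B cell genes 5 of 11 rose and 0 fell, or 3 without t0 375, among dendritic cell genes 5 of 11 rose and 0 fell, and among neutrophil genes 2 of 10 rose and 0 fell; with 1 library left out 0 to 8 rose, 8 without baseline 345. Neutrophil sums ran from 2.94 to 187 CPM at baseline and 24.9 to 169.5 CPM at t0, and baseline 345 held the highest of its group. Mast cell genes went the other way: 1 of 7 rose and 5 fell, with Hdc, which makes histamine, at -1.41 ± 0.27 and the tryptase Tpsb2 at -3.66 ± 0.71, -2.56 without baseline 355.

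Antigen presentation genes rose, and few genes of the linked signal lists fell. In the MHC class I pathway 10 of 17 rose and 0 fell and in class II 7 of 10 rose and 0 fell. Over all genes 23.3% were higher and 22.3% lower. The groups did not overlap for 2 class I genes and 0 class II genes, beside 25.8% of all genes. The class I sum was 2440 to 7462 CPM at baseline and 5459 to 15573 CPM at t0. The class II sum was 177 to 1032 CPM at baseline and 597 to 3899 CPM at t0. Both sums were highest in baseline 344 and t0 375 of their groups. Psmb8, an immunoproteasome subunit, had a median of 29.9 CPM (21.4 to 81.4) at baseline and 134 CPM (70.4 to 237) at t0 (log2 change 2.03 ± 0.31 (SE), edgeR adjusted p = 6.8e-06). Its groups overlapped. H2-Aa, a class II chain, changed by 2.23 ± 0.49. Of 27 interferon-stimulated genes 9 rose and 1 fell, and Ifit1 was not called (0.46 ± 0.29). Of 24 chemokines 12 rose and 1 fell. Cxcl16, a membrane-bound chemokine, changed by 1.29 ± 0.23 and Ccl6, made by macrophages, by 4.84 ± 0.70. Ccl28, an epithelial chemokine, was the 1 that fell (-2.33 ± 0.35). In the NF-kB and interleukin-1 list 12 of 22 rose and 1 fell, with Rela at 1.29 ± 0.18 and Il1a at 3.83 ± 0.71. Among checkpoint and costimulation genes 9 of 16 rose and 0 fell, with Cd80 at 2.87 ± 0.47 and Ido1, which degrades tryptophan, at 4.44 ± 0.93, 6.20 without baseline 344, 3.51 without t0 375.

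Ligands of the EGF receptor rose, while few feedback and immediate early genes were called. Of 12 ligands and ERBB receptors 7 rose and none fell (median 0.89), beside 23.3% higher and 22.3% lower over all genes. The groups did not overlap for Areg, amphiregulin (GRCm38, chromosome 5, 91139615 to 91148432), with a median of 1.80 CPM (0.696 to 2.36) at baseline and 8.31 CPM (5.74 to 24.3) at t0 (log2 change 2.71 ± 0.82 (SE), edgeR adjusted p = 0.0085). Ereg, epiregulin, changed by 6.11 ± 0.88 and the receptor Erbb2 by 0.55 ± 0.17. Of 17 feedback genes of the MAPK pathway 1 rose (Dusp5, 2.19 ± 0.67) and 1 fell (Spred1, -0.59 ± 0.15). Of 19 AP-1 and immediate early genes 2 rose, Fosl2 (1.08 ± 0.23) and Jund (0.56 ± 0.20, and without t0 357 the adjusted p was 0.0687), and 2 fell, Nr4a2 (-0.93 ± 0.32, and without baseline 343 the adjusted p was 0.107) and Fos (-1.64 ± 0.64, -0.96 without baseline 343), where for Fos without baseline 343, baseline 355, t0 332, t0 367, t0 374 or t0 375 the adjusted p was 0.0631 to 0.2.

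Notch and Wnt genes were called in both directions. In the Notch pathway 9 of 22 rose and 4 fell: the receptor Notch1 rose (1.66 ± 0.15) and Notch2 fell (-0.70 ± 0.14), and the target Hey1, a repressor, fell (-1.07 ± 0.20). In the Wnt list 8 of 31 rose and 9 fell (25.8% higher and 29.0% lower), near the 23.3% higher and 22.3% lower over all genes. The ligand Wnt4 had a median of 80.9 CPM (60.9 to 125) at baseline and 346 CPM (220.0 to 1173) at t0 (log2 change 2.46 ± 0.32 (SE), edgeR adjusted p = 7.7e-07). Its groups did not overlap. Wnt10a rose (3.04 ± 0.40), and the receptors Fzd4 (-1.79 ± 0.18) and Fzd3 (-1.07 ± 0.15) fell. In the TGF-beta and BMP list 7 of 20 rose and 3 fell, with the ligands Tgfb1 (3.14 ± 0.29) and Gdf15 (5.05 ± 0.71) higher. YAP targets (3 of 12 rose and 2 fell) and STAT3 genes with cytokine receptors (5 of 18 rose and 5 fell) lay near those shares too.

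Of 26 tested transcription factors of airway identity 9 rose and 5 fell (34.6% higher and 19.2% lower, beside 23.3% and 22.3% over all genes). Pitx1, a homeobox factor of the oral epithelium and the developing hindlimb, had a median of 10.7 CPM (7.42 to 15.8) at baseline and 48.7 CPM (33.3 to 101.1) at t0 (log2 change 2.397 ± 0.26 (SE), edgeR adjusted p = 5.9e-08). Its groups did not overlap. Elf3, an epithelial ETS factor, rose (0.96 ± 0.16), and Foxa2 (-2.03 ± 0.28) and Gata6 (-2.17 ± 0.32), lung endoderm factors, fell. Nkx2-1, the factor of lung and thyroid, was not called (0.01 ± 0.15).

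Genes of rare cell types in the tracheal lining were called in different directions. Among neuroendocrine genes 8 of 13 rose and 0 fell, including the granule protein Chgb (2.02 ± 0.44). Among tuft cell genes 5 of 12 rose and 6 fell. The falls were in chemosensory genes such as Gng13 (-1.95 ± 0.44), Gnat3 (-1.56 ± 0.38) and Rgs13 (-3.08 ± 0.47), while Plcb2 and Ltc4s, which white blood cells also express, rose (2.80 ± 0.34 and 1.44 ± 0.38). Macrophage markers rose in the same libraries, and their part in these values was not tested. Among ionocyte and proton pump genes 3 of 12 rose and 3 fell, or 1 without t0 375. With all libraries, both shares lay near the 23.3% higher and 22.3% lower over all genes. In 6 of the 12 the groups did not overlap, beside 25.8% of all genes. The summed level was 287 to 350 CPM at baseline and 91.2 to 171 CPM at t0, ranges that did not meet. Pump subunits went both ways. Atp6v0d2 ran from 0.402 to 2.80 CPM at baseline and from 29.5 to 89.2 CPM at t0. The part of macrophages in the values of Atp6v0d2 was not tested either. Atp6v1b1, another subunit, had a median of 153 CPM (135 to 190.1) at baseline and 10.3 CPM (7.84 to 13.4) at t0 (log2 change -3.90 ± 0.32 (SE), edgeR adjusted p = 6.6e-10). Its groups did not overlap.

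Markers of tissues around the trachea differed between libraries, some lists higher at t0 and others lower. The 19 skeletal muscle genes summed to 21.4 to 85.9 CPM at baseline and 26.7 to 327 CPM at t0. Of 18 tested, 15 were called higher (median 4.66), beside 23.3% of all genes. With the 12 libraries fitted alone 3 were called higher, and by limma 1. The 2 high libraries were t0 367 with 327 CPM and t0 357 with 255 CPM, and the 4 others had 26.7 to 60.1 CPM. Salivary gland genes summed to 19.6 to 737 CPM at baseline and 71.4 to 7963 CPM at t0, highest in t0 375, where Spt1, a salivary protein, had 5168 CPM and the other 5 t0 libraries had none. All 7 tested adipocyte genes rose (median 2.75), from 6.07 to 43.3 CPM at baseline and 51.0 to 333 CPM at t0. Fabp4, the fatty acid carrier of fat cells and macrophages, changed by 3.02 ± 0.68 and Plin1, which coats lipid droplets, by 3.69 ± 1.01, 4.35 without baseline 352. Fibroblast genes summed to 187 to 502 CPM at baseline and 236 to 512 CPM at t0, and 2 of 18 were called higher. Cartilage genes summed to 381 to 640.2 CPM at baseline and 62.2 to 218 CPM at t0, ranges that did not meet. Most of that sum was Chad, chondroadherin, a cartilage matrix protein, the 1 of 6 tested that was called (log2 change -2.30 ± 0.34). Chad is also a member of the club cell list, so its fall cannot be assigned to cartilage. Thyroid genes summed to 22.1 to 1086 CPM at baseline and 3.99 to 189 CPM at t0, with a median of 120.4 and 7.61 CPM. Of 4 tested none rose and 1 fell, the iodide transporter Slc5a5 (-2.24 ± 0.74), while 2 fell without t0 359 and 3 without t0 367. Whether these tissues took part in any other change was not tested.

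Some of the largest changes lay outside every list. Cxcr1, an interleukin-8 receptor, had a median of 0.188 CPM (0 to 0.416) at baseline and 28.4 CPM (8.49 to 64.3) at t0 (log2 change 7.20 ± 1.05 (SE), edgeR adjusted p = 4.7e-06). All t0 libraries lay above all baseline libraries. Atg9b, a lipid scramblase of autophagy, rose by 9.30 ± 0.73, and the transcripts 2300002M23Rik and Gm9573 by 9.27 ± 0.86, 9.87 without baseline 352 and 8.60 ± 0.74. Among the falls, Tacr1, the receptor of substance P, had a median of 82.7 CPM (72.3 to 111) at baseline and 4.98 CPM (2.54 to 8.88) at t0 (log2 change -4.10 ± 0.37 (SE), edgeR adjusted p = 3.8e-09), again with no overlap. Sult1c1, a sulfotransferase, changed by -4.91 ± 0.56, Retnla, a resistin-like protein of type 2 responses, by -4.67 ± 1.06, -2.24 without baseline 345, and Tbata by -4.94 ± 0.45, -5.67 without t0 359. By share of counts, large losses included Sec14l3, a lipid carrier of ciliated airway (-2.43 ± 0.25), and Aldh1a1, which makes retinoic acid (-1.50 ± 0.23), and Ctsd, the lysosomal protease cathepsin D, was a large gain (2.27 ± 0.20). Of the relatives of the deleted receptor, Gprc5b rose (1.08 ± 0.24) and Gprc5c fell (-0.70 ± 0.17).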

How the data were processed

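RNA from tracheal brushings was measured in 12 libraries, 6 at baseline and 6 at t0, 1 mouse each; per the labels' protocols, RNA had an integrity number of at least 7. The table that the authors deposited holds estimated counts, although RPKM stands in its name: 76.3% of the values above 0 are whole within 0.01, and library totals differ. STAR 2.4.1d, Bowtie2 2.1.0, Partek and the build mm10 are named in the submitters' processing notes, with no role given. Strand and the sharing of reads between genes are not given in the sources used here, so near-identical and antisense genes are uncertain. The end coordinates printed are 1 base under the deposited stop.

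Estimated counts were rounded, and a gene was kept where 5 or more of the 28 knockout libraries had 1 CPM or more. Genes were tested in R 4.3.3 with the robust quasi-likelihood fit of edgeR 4.0.16, two-sided, with TMM scaling and a mean for each of the 5 knockout groups, so that all 28 libraries share the estimate of spread; p-values were adjusted by Benjamini-Hochberg over 14847 genes, with a threshold of 0.05. Called genes passed it. "Rose" and "fell" are used of called genes, and a sum over a list is in TMM-scaled CPM. The script was checked on simulated data. The comparison and the 85 gene lists were chosen with earlier results of these data known. Named genes were the first 3 of each list, its 3 called members with the smallest p in each direction, those that went against its majority, the largest changes, the most abundant genes and Gprc5a, with the first of each ranking kept. Alternatives were other scalings, filters and tools (DESeq2 1.42.0, limma 3.58.1), sex as a covariate, the 12 libraries alone and each library left out. Some genes that this rule names are not reported here.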

Additional observations from a re-analysis of the deposited data

Results flagged for a closer look

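A sample far from the others of its group was looked for over 14 gene sets and 29 genes in both groups, 86 groups of values in all; 20 had a highest library whose gap to the next took more of the whole range than Dixon's limit for 6 values. Chance alone flags about 1 in 20 such groups where values are normally distributed. The rule was applied to CPM without a log, and the chance rate for such values was not tested. Genes of 1 set are not independent of each other.

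Library t0 359 stood above the other t0 libraries for the ciliary sum, at 12266 CPM (gap 0.794 of the range). The same library led for Dnah9 (0.902), Spag17 (0.875), Dync2h1 (0.86) and Foxj1 (0.721). It was a female library with 30.3 M counts, the deepest of the 12.

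Library baseline 352 stood above the other baseline libraries for Krt14 (0.921 of the range), Krt13 (0.919), Ecm1 (0.752) and the tight junction gene Cldn4 (0.776). The basal and squamous sums did not pass the limit. At baseline the basal sum was highest in 352, at 4026 CPM. The squamous sum was highest in 356, at 6122 CPM, beside 5780 CPM in 352. Baseline 352 also led for the salivary sum, at 737 CPM (0.763), and whether it shares a source with the single genes was not tested. Baseline 345 led for the neutrophil sum, at 187 CPM (0.96), and for Clca1, at 5938 CPM (0.856), Muc13 (0.743) and Psca (0.899). Baseline 344 led for Psmb8 (0.767).

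Library t0 375 led for the salivary sum, at 7963 CPM (0.835), for the T and NK cell sum, at 295 CPM (0.786), and for the mitotic gene Cdc20 (0.699). Wnt4 was highest in t0 367, at 1173 CPM (0.737), and Cyp2a5 in t0 374, at 6355 CPM (0.681).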

How the results depend on the processing

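The count of called genes was 6761 and lay between 6087 (at least 5 CPM) and 7218 (only the 12 libraries compared) under other scalings, filters, tools and sets of libraries. Leaving out 1 library at a time gave 5974 to 7059 called genes, the lowest without t0 357 and the highest without t0 359. Scaling by library totals gave 1909 genes lower at t0 in place of 3304, and 69.4% of its calls were higher. Of 200 called genes named in the text, 181 kept their direction and call in all 23 alternatives and 19 missed the threshold in at least 1. Of 4836 gene values, 0 changed direction where the gene was called in the main fit or in the alternative. Changes of sign in genes called in neither were not counted. Of 1955 list counts, 106 moved by over 1.5 times, most of them in lists with few called members or lists of blood, salivary and immune cells. No paired analysis was possible because the numbers in the labels are animal numbers and the groups share none. The cause of each move was not tested. Genes under 2 CPM on average were called less often, at 26.8%, so a low gene that was not called may still differ. Groups of 6 bound the precision, and age, injections and NNK cannot be told apart.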

Other observations

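Metabolic lists held calls in both directions, to be read beside the 23.3% higher and 22.3% lower over all genes. In sterol and fatty acid synthesis 3 of 27 rose and 8 fell, or 5 without t0 374, or 5 without t0 375: Insig1, a brake on sterol synthesis, changed by -1.70 ± 0.19 and Sqle, squalene epoxidase, by -1.30 ± 0.19, while Fasn, fatty acid synthase, rose (0.66 ± 0.14). In the respiratory chain and ATP synthase 4 of 41 rose and 13 fell, or 8 without baseline 356, with Cox7b at -0.86 ± 0.13 and Atp5j at -0.73 ± 0.15 against Uqcrc1 at 0.52 ± 0.11. In hypoxia and glycolysis 7 of 25 rose and 6 fell, near the shares over all genes: Ldha, lactate dehydrogenase, rose (0.89 ± 0.17), as did the phosphofructokinase Pfkp (0.94 ± 0.14), and the glucose transporter Slc2a1 fell (-0.92 ± 0.17). In the unfolded protein list 6 of 22 rose and 3 fell, with Chac1, which degrades glutathione, at 2.26 ± 0.58. Among cytosolic heat shock genes 3 of 18 rose and 5 fell. Among 39 ribosomal proteins 8 rose and 3 fell (20.5% higher and 7.69% lower). Of 19 clock genes 3 rose and 5 fell (15.8% higher and 26.3% lower), among them Hlf (1.34 ± 0.16), Bhlhe41 (2.60 ± 0.47), Cry2 (-1.31 ± 0.24) and Rora (-1.08 ± 0.15); the hour of collection is not in the labels.

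Markers of the alveolus, which lies beyond the trachea, were mixed, and their summed level was 2209 to 3236 CPM at baseline and 2206 to 3773 CPM at t0. In that list 3 of 13 rose and 5 fell (23.1% higher and 38.5% lower), with the surfactant genes Sftpb (-4.54 ± 0.62) and Abca3 (-0.88 ± 0.22) lower and Napsa (2.06 ± 0.58) and Aqp5 (1.79 ± 0.23), which airway glands also express, higher. Of 10 Schwann cell and neuron genes 4 rose and 2 fell, with Pmp22 at 1.87 ± 0.22. None of 12 ribosomal RNA and nuclear noncoding genes was called by edgeR; 2 had an unadjusted p under 0.05, and DESeq2 called 0.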
